A study of Mus musculus with 8 samples.

Results

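The 4 tropomyosin genes Tpm1, Tpm2, Tpm3 and Tpm4 and the 3 muscle actin genes Actc1, Acta1 and Acta2 were followed in RNA sequenced from whole embryonic mouse hearts. They were chosen by symbol, matched to Entrez gene IDs, and are 7 of 27179 genes counted; all 7 passed the filter on low counts, which left 15086 genes to test. The hearts were taken at E10.5 (days of embryonic development) from 5 Kat6a+/+ embryos (labelled MOZ WT, here Kat6a WT) and from 3 Kat6a-/- embryos without a working copy of either allele (labelled MOZ KO, here Kat6a KO). Moz is another name of Kat6a, a gene for a histone acetyltransferase. The sources used here give neither the strain nor the part of the gene that was removed. The comparison asks how loss of Kat6a changes heart transcripts at this stage.

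Thin filaments of muscle are built from actin, and tropomyosin lies along them as a coiled coil that, together with the troponin complex, lets calcium switch contraction on and off. Vertebrates hold several genes for each: Tpm1 makes the main tropomyosin of the heart, Tpm2 the beta form of muscle, and Tpm3 and Tpm4 make mostly cytoskeletal forms in tissue that is not skeletal muscle. Cardiac actin (Actc1) is the main sarcomeric actin of the heart, while skeletal actin (Acta1) and smooth muscle actin (Acta2) are also made in the embryonic heart as it forms. Tropomyosin genes can give several proteins through alternative promoters and exons, and a gene-level count cannot tell these apart. The RefSeq table of GRCm38.p6, the assembly behind mm10, lists 10 curated transcripts for Tpm1, 7 for Tpm3 and 3 for Tpm2, but only 1 for Tpm4.

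The actin genes are close enough in sequence to be shown side by side, since values for each rest on reads that can be placed in 1 of them. The first 90 coding bases of the 3 muscle actins (GENCODE M21 transcripts, GRCm38) are given 5′ to 3′ with capitals at the 26 positions where they are not all alike.
Actc1: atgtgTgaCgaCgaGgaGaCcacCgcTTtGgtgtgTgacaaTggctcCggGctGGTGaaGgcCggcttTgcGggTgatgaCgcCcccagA
Acta1: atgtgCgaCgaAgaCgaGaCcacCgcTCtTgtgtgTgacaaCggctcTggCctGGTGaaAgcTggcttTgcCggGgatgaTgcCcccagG
Acta2: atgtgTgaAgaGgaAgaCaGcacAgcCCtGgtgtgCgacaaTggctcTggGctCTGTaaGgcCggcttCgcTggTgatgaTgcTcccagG
Over 1131 coding bases, Actc1 and Acta1 were 86.3% identical, Acta1 and Acta2 85.4%, and Actc1 and Acta2 82.6%. The longest stretch shared by any pair ran to 29 bases. Of all 50-base words in the annotated protein-coding transcripts of each gene, 0 of 1568 for Actc1, 31 of 1534 for Acta1 and 7 of 2146 for Acta2 also occurred in a transcript of another gene. The tropomyosins were less even: 0 of 4962 words of Tpm1 and 0 of 2489 of Tpm2 were shared, against 40.0% of those of Tpm3, all found in the processed copy Tpm3-rs7, and 12.1% of those of Tpm4, found in the copy Gm7809. The counts of Tpm3 and Tpm4 are therefore uncertain to the extent that reads matching these copies were dropped or split. The sources used here do not say how the counting treated them. Tpm2 overlaps Car9 by 4 bases, and no other annotated gene overlaps the other 6.

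Libraries held 19911803 to 34539787 counts, and all 28 pairs of hearts differed by more than sampling noise (chi-square per degree of freedom of 7.90 or more), so no pair looked like copies of the same library; that the libraries come from separate hearts rests on the labels. The labels give no litter, so litter could not be taken into account. The p-values set the difference between genotypes against the variation among these hearts, treated as independent. They could be too small if hearts of a genotype share litters. The sample descriptions number the Kat6a KO hearts ahead of the Kat6a WT hearts, and any effect of that order and genotype cannot be told apart. Kat6a itself did not pass, at 138 to 156 CPM in Kat6a WT and 133 to 141 CPM in Kat6a KO (CPM is the count scaled to library size; log2 fold change of -0.08 ± 0.05, edgeR, adjusted p = 0.529). With the deleted part unknown, this does not check the genotype. Xist, the RNA of the inactive X chromosome, stood at 301 to 307 CPM in Kat6a WT replicates 4 and 5 and at or below 0.372 CPM elsewhere, so that all Kat6a KO hearts lacked it and the Kat6a WT group was mixed. Cardiomyocyte genes marked the tissue as labelled: Myh6, Myh7 and Tnnt2 averaged 6622, 8588 and 2506 CPM in Kat6a WT.

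Levels between genes were compared per length, as RPKM, which is CPM divided by the deposited gene length in kilobases. Actc1 (Entrez gene 11464, chromosome 2 from 114047282 to 114052875) ranked 2 of 15086 genes by its mean in Kat6a WT, at 6669 ± 233 RPKM (SD, n = 5). Acta2 (Entrez gene 11475, chromosome 19 from 34240336 to 34255585) ranked 25, at 1211 ± 106 RPKM, and Tpm1 (Entrez gene 22003, chromosome 9 from 67022590 to 67049672) ranked 33, at 973 ± 44.8 RPKM. Next came Acta1 (Entrez gene 11459, chromosome 8 from 123891758 to 123894775) at 386 ± 49.8 RPKM and Tpm4 (Entrez gene 326618, chromosome 8 from 72135288 to 72153142) at 162 ± 8.40 RPKM. Tpm3 (Entrez gene 59069, chromosome 3 from 90072651 to 90100902) stood at 62.9 ± 4.05 RPKM, and Tpm2 (Entrez gene 22004, chromosome 4 from 43513726 to 43523583) was lowest, at 51.1 ± 2.92 RPKM. No neighbours in this order overlapped across the 5 Kat6a WT hearts. In Kat6a KO the lowest pair no longer kept its order: Tpm2 ran from 57.1 to 62.6 RPKM and Tpm3 from 57.1 to 59.8 RPKM, and their means, 60.5 ± 2.93 and 58.6 ± 1.39 RPKM (SD, n = 3), lay within that spread. Tpm2, the member with the fewest reads, had at least 2177 counts in each heart.

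**Figure D1:**
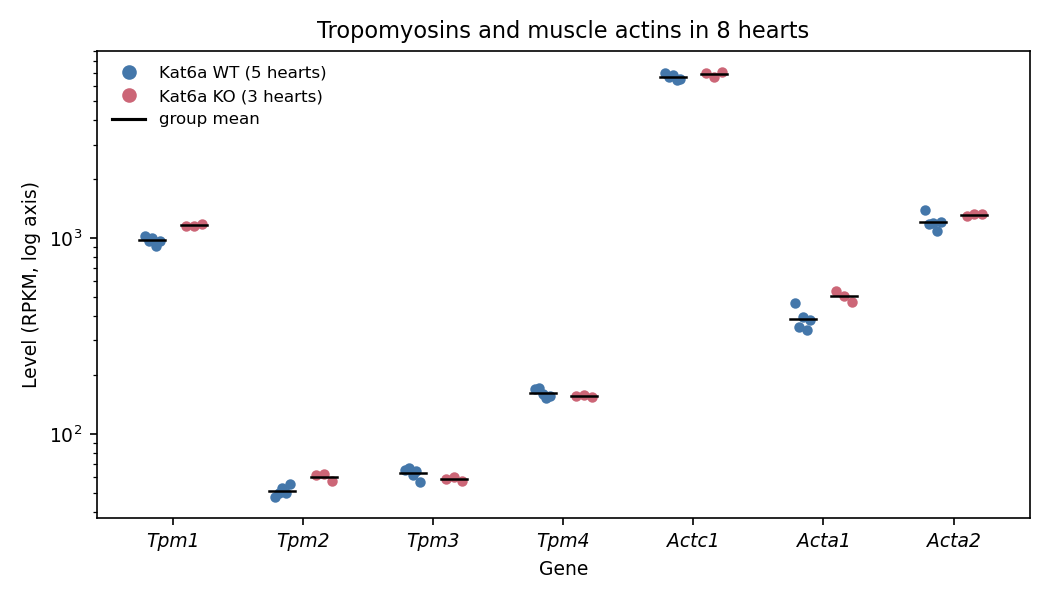
Level of each gene in RPKM on a log axis, with 1 point per heart (blue Kat6a WT, red Kat6a KO) and a line at the group mean. Actc1 lies far above the rest, the 3 Kat6a KO points of Tpm1, Tpm2 and Acta1 lie above all 5 Kat6a WT points, and Tpm2 and Tpm3 come together in Kat6a KO.

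Of the 7 genes, 2 rose in Kat6a KO and 0 fell. The threshold was 0.05 after Benjamini-Hochberg adjustment over all genes in edgeR's quasi-likelihood test, and 2.67% of the 15086 genes tested passed it, 1.44% higher and 1.23% lower. The genes that rose were Tpm1 and Tpm2. The 3 Kat6a KO values of Tpm1, Tpm2 and Acta1 lay above all 5 Kat6a WT values, and 0 of the 7 genes lay below; over all genes 9.59% were apart in this way, 4.77% above and 4.81% below. The median log2 fold change was 0.10 over the tropomyosins and 0.12 over the actins, beside a median of -0.00015 over all genes tested. Of all genes tested, 49.9% had a log2 fold change above 0. The hearts were sequenced whole, so more cells that express a gene and more of its RNA in each cell cannot be told apart. Leaving out the pair of Kat6a WT hearts with Xist RNA, the count was again 2 genes higher and 0 lower.

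In Kat6a WT replicates 1 to 5, Tpm1 stood at 3367, 3164, 3274, 2974 and 3172 CPM, and Kat6a KO replicates 1 to 3 had 3798, 3758 and 3847 CPM. The Kat6a KO hearts lay close together and all above the highest Kat6a WT heart. Tpm1 rose by 0.25 ± 0.05 on the log2 scale (SE; edgeR quasi-likelihood test, adjusted p = 0.00442), a fold change of 1.19. Without the hearts with Xist RNA the rise was 0.22 ± 0.05 (edgeR, adjusted p = 0.0288).

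For Tpm2 the values of Kat6a WT replicates 1 to 5 were 100, 104, 111, 105 and 116 CPM, and those of Kat6a KO replicates 1 to 3 were 130, 131 and 120 CPM. The groups did not overlap, although Kat6a KO replicate 3 came within 5 CPM of Kat6a WT replicate 5. Tpm2 rose by 0.24 ± 0.05 on the log2 scale (SE; edgeR quasi-likelihood test, adjusted p = 0.0124), a fold change of 1.18. Its call rested on Kat6a KO replicates 1 and 2: the adjusted p was 0.104 without the first and 0.0944 without the second (edgeR, log2 fold changes of 0.23 and 0.21).

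The 2 tropomyosin genes with a large cytoskeletal output did not pass. Tpm4 had 317 to 358 CPM in Kat6a WT, with a median of 332, and 324, 330 and 322 CPM in Kat6a KO, inside the Kat6a WT range. Its log2 fold change was -0.05 with a 95% interval of -0.15 to 0.05 (edgeR, adjusted p = 0.712). Tpm3 had 150 to 177 CPM in Kat6a WT and 151 to 159 CPM in Kat6a KO, again overlapping, with a log2 fold change of -0.10 and an interval of -0.21 to 0.01 (edgeR, adjusted p = 0.398). The upper bounds of both intervals lie below the 0.15 and 0.13 at which those of Tpm1 and Tpm2 begin.

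Acta1, the skeletal muscle actin, had the largest fold change of the 7 genes but did not pass. Kat6a WT replicates 1 to 5 held 668, 500, 564, 488 and 546 CPM of it, and Kat6a KO replicates 1 to 3 held 771, 721 and 675 CPM. Kat6a WT replicate 1 lay well above the other 4 Kat6a WT hearts and just under Kat6a KO replicate 3. The log2 fold change was 0.38 ± 0.10 (SE) with a 95% interval of 0.16 to 0.61 (edgeR quasi-likelihood test, adjusted p = 0.0990). Without Kat6a WT replicate 1 it was 0.46 ± 0.06 and passed (edgeR, adjusted p = 0.000126), and it also passed in DESeq2 (adjusted p = 0.0367) and limma voom (adjusted p = 0.00914). Without the hearts with Xist RNA it was 0.32 ± 0.10 (edgeR, adjusted p = 0.227). Leaving out any heart other than Kat6a WT replicate 1 it did not pass either (edgeR, adjusted p from 0.102 to 0.306).

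Actc1 had 8891 to 9682 CPM in Kat6a WT, with a median of 9260, and 9713, 9220 and 9792 CPM in Kat6a KO. The groups overlapped, and the log2 fold change was 0.05 with a 95% interval of -0.05 to 0.15 (edgeR, adjusted p = 0.728). This most abundant actin took 0.892% to 0.986% of all counts of a heart. Acta2 was measured at 2460, 2097, 2132, 1941 and 2147 CPM across Kat6a WT replicates 1 to 5, with 2296, 2371 and 2348 CPM for Kat6a KO replicates 1 to 3. Kat6a WT replicate 1 was above all Kat6a KO hearts and the other 4 were below them. The log2 fold change was 0.12 ± 0.06 with an interval of -0.01 to 0.24 (edgeR, adjusted p = 0.384), and leaving out that heart it was 0.17 ± 0.05 (adjusted p = 0.0563).

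**Figure D2:**
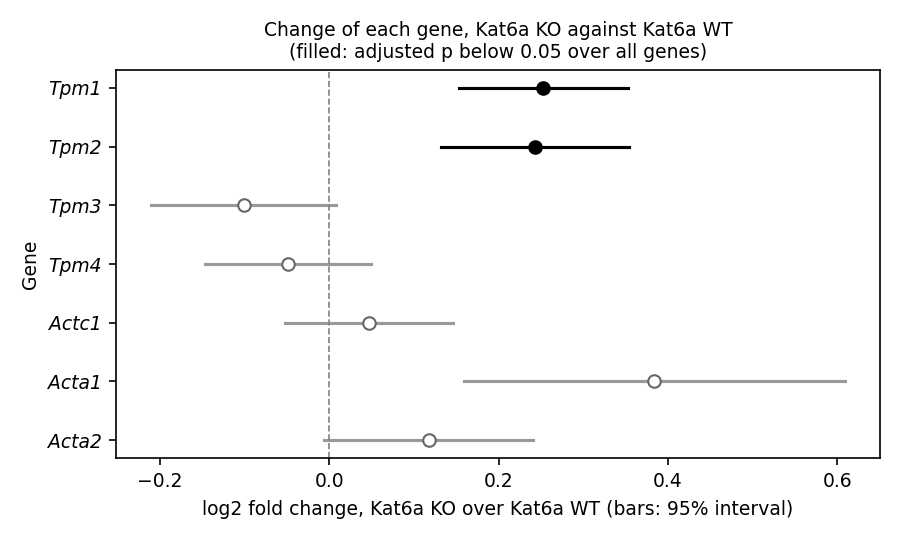
Log2 fold change of each gene, Kat6a KO over Kat6a WT, with its 95% interval; filled points passed an adjusted p of 0.05 over all genes. Tpm1 and Tpm2 lie at 0.25 and 0.24, Acta1 at 0.38 with the widest interval, and those of Tpm3, Tpm4, Actc1 and Acta2 include 0.

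Shares within each family need no scaling between libraries. They were taken per length in each heart and compared with a two-sided exact permutation test over hearts; 7 shares were tested without adjustment, and with 5 hearts against 3 the smallest p possible is 0.0357. Tpm1 made up 77.0% to 78.5% of tropomyosin RNA in Kat6a WT hearts and 80.3% to 81.4% of it in Kat6a KO hearts, with means of 77.9% ± 0.713 (SD, n = 5) and 80.8% ± 0.526 (SD, n = 3; exact permutation p = 0.0357). The share of Tpm4 was lower in Kat6a KO, at 13.0% ± 0.463 against 10.9% ± 0.200 (exact permutation p = 0.0357), and so was that of Tpm3, at 5.04% ± 0.366 against 4.08% ± 0.118 (exact permutation p = 0.0357). In all 3 the Kat6a KO hearts lay outside the Kat6a WT range. Tpm2 held 4.10% ± 0.311 in Kat6a WT and 4.22% ± 0.225 in Kat6a KO, with overlapping hearts (exact permutation p = 0.643). The makeup of the tropomyosin pool thus differed by more than the spread between hearts. Tpm1 had a larger part and Tpm4 and Tpm3 smaller parts. As these shares are tied to each other, the 3 p-values are not separate findings. By CPM, Tpm1 rose while Tpm4 and Tpm3 did not pass. Per-length shares depend on the deposited gene length, 3279 bases for Tpm1, whatever transcripts of it a heart makes.

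Among muscle actins the share of Acta1 was 5.29%, 4.26%, 4.68%, 4.35% and 4.72% for Kat6a WT replicates 1 to 5, while Kat6a KO replicates 1 to 3 had 6.11%, 5.94% and 5.33%. The lowest Kat6a KO heart exceeded Kat6a WT replicate 1 only narrowly, and the means were 4.66% ± 0.403 and 5.79% ± 0.409 (exact permutation p = 0.0357). Actc1 held 80.7% ± 1.06 in Kat6a WT and 79.1% ± 0.718 in Kat6a KO, with overlap (exact permutation p = 0.107). Acta2 held 14.6% ± 0.689 and 15.1% ± 0.569 (exact permutation p = 0.321), again with overlap.

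**Figure D3:**
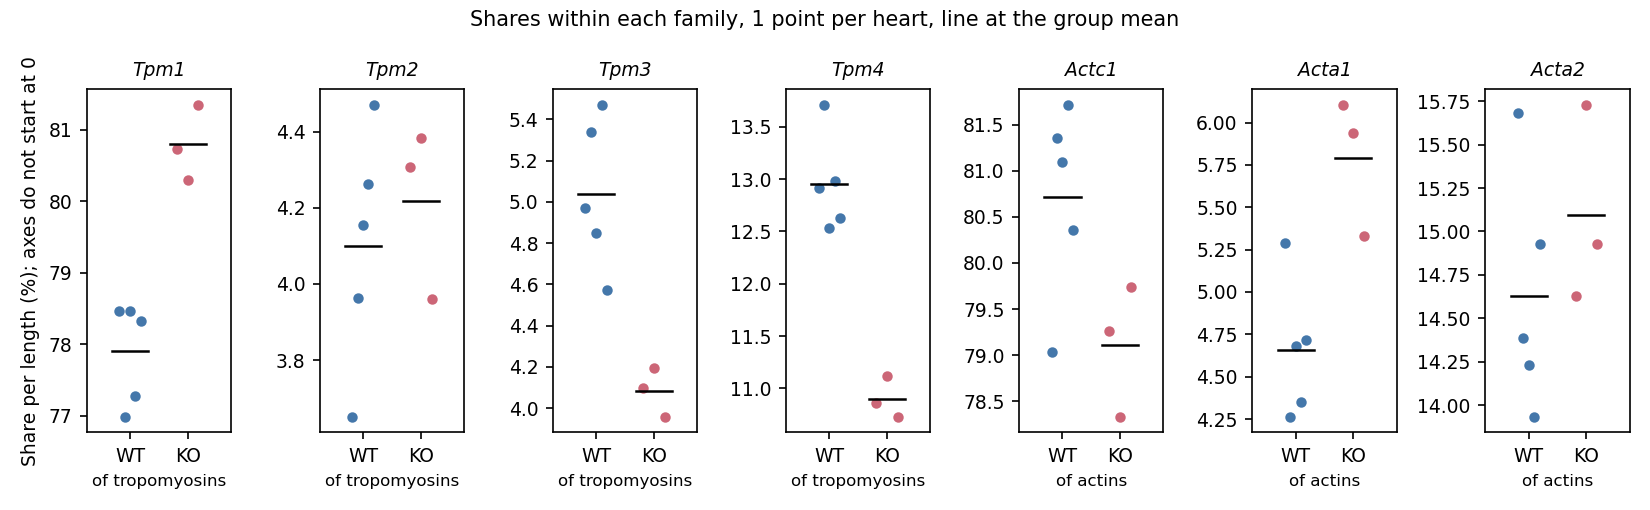
Share of each gene in the summed RPKM of its family, in percent, with 1 point per heart and a line at the group mean; each panel has its own axis. Kat6a KO points lie apart from all Kat6a WT points for Tpm1, Tpm3, Tpm4 and Acta1, and overlap them for Tpm2, Actc1 and Acta2.

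Ratios of genes within the same heart gave the contrast between paralogs, 6 pairs in all and without adjustment. The log2 ratio of Tpm1 over Tpm4, per length, was 2.59 ± 0.06 in Kat6a WT (SD, n = 5) and 2.89 ± 0.04 in Kat6a KO (SD, n = 3; exact permutation p = 0.0357). That of Tpm1 over Tpm3 was 3.95 ± 0.12 and 4.31 ± 0.05 (exact permutation p = 0.0357). Tpm1 was therefore higher relative to both, with no overlap between the groups. The ratio of Tpm1 over Tpm2 was 4.25 ± 0.11 and 4.26 ± 0.09, a difference of 0.01 (exact permutation p = 0.929).

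Tpm1 was also higher against cardiac actin, on whose filaments tropomyosin lies. The log2 ratio of Tpm1 over Actc1 varied little among hearts of a group, at -2.76, -2.79, -2.77, -2.82 and -2.75 for Kat6a WT replicates 1 to 5, with Kat6a KO replicates 1 to 3 at -2.59, -2.53 and -2.59. All Kat6a KO hearts lay above all Kat6a WT hearts, and the difference of 0.21 was larger than either SD, 0.03 in both groups (exact permutation p = 0.0357). For the families as a whole, given as a description, summed muscle actin RPKM over summed tropomyosin RPKM was 6.53 to 6.73 in Kat6a WT, while Kat6a KO hearts had 5.93 to 6.15. The log2 ratio of Acta1 over Actc1 was -4.12 ± 0.14 and -3.77 ± 0.11, and Kat6a WT replicate 1 overlapped Kat6a KO replicate 3 by less than 0.01 (exact permutation p = 0.0714). Acta2 over Actc1 was -2.46 ± 0.09 and -2.39 ± 0.07 (exact permutation p = 0.250).

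**Figure D4:**
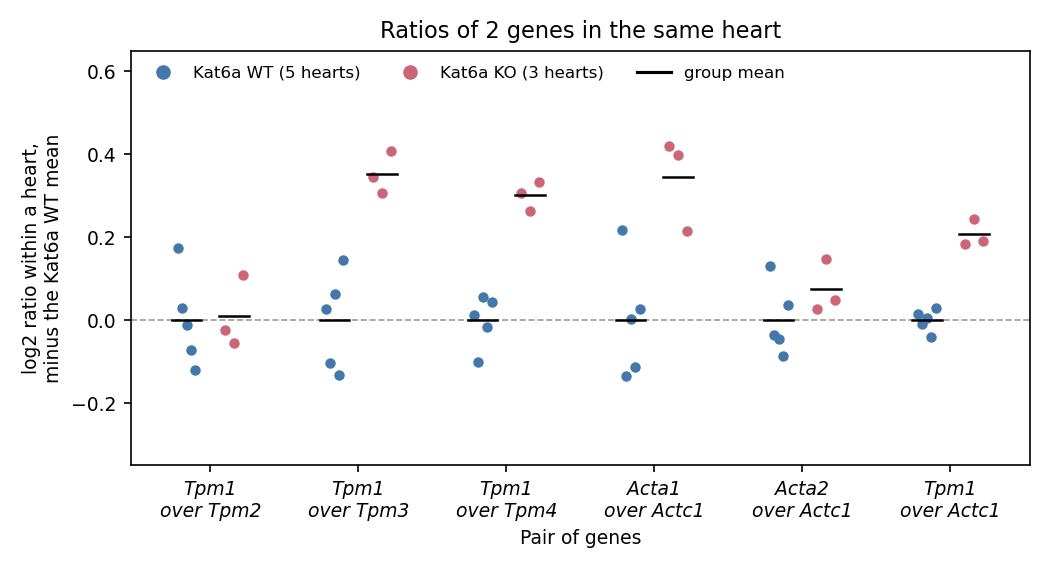
Log2 ratio of a pair of genes within each heart, per length, minus its Kat6a WT mean, with 1 point per heart and a line at the group mean. Tpm1 over Tpm3, Tpm4 and Actc1 separate the groups, Tpm1 over Tpm2 centres on 0 in both, and Acta1 over Actc1 overlaps through 1 Kat6a WT heart.

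To set the 7 genes against other cardiomyocyte RNA, their CPM was divided by the summed CPM of 12 cardiomyocyte genes (Myh6, Myh7, Myl2, Myl3, Myl4, Myl7, Ttn, Actn2, Mybpc3, Ryr2, Pln and Csrp3). Of these, 3 rose and 0 fell: Csrp3, a Z-disc protein, by 0.30 ± 0.05, the myosin light chain Myl3 by 0.27 ± 0.06 and the calcium release channel Ryr2 by 0.25 ± 0.06 on the log2 scale (SE; edgeR, adjusted p = 0.000987, 0.0105 and 0.0187). The median log2 fold change of the 12 genes was 0.18, with 11 above 0. Over all genes tested 49.9% were above 0 and 2.67% passed. The calls of Myl3 and Ryr2 were each lost without Kat6a KO replicate 1 (edgeR, adjusted p = 0.105 and 0.122), that of Myl3 also without replicate 3 (0.0687) or the hearts with Xist RNA (0.0653), and that of Ryr2 also without Kat6a KO replicate 2 (0.123) or Kat6a WT replicate 3 (0.0615). The sum was 27906 to 30099 CPM in Kat6a WT and 29849 to 34248 CPM in Kat6a KO. These ranges overlapped, although the sum reached higher values in Kat6a KO, and a group difference in it was not tested. Relative to it, Tpm1 and Tpm2 differed by 0.10 and 0.09 (exact permutation p = 0.143 and 0.179, n = 5 and 3) and overlapped between groups. On the same scale the differences were -0.20 for Tpm4 and -0.25 for Tpm3 (exact permutation p = 0.0357 for each, 7 tests without adjustment). The groups did not overlap, but only narrowly. Kat6a KO replicate 3 and Kat6a WT replicate 5 were at -7.623 and -7.622 for Tpm3, and at -6.53 and -6.50 for Tpm4. Acta1 differed by 0.24 (exact permutation p = 0.0714), Actc1 by -0.10 (p = 0.214) and Acta2 by -0.029 (p = 0.714), the last pair with the sign opposite to that of their CPM. For Tpm1 the SD of this log2 ratio was 0.03 among Kat6a WT hearts and 0.12 among Kat6a KO hearts. In Kat6a KO replicate 3 Tpm1 stood at -2.96 (log2) relative to the sum, beside -3.15 and -3.19 in the other 2 Kat6a KO hearts. Without the hearts with Xist RNA, 2 of the 12 genes rose.

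Tropomyosin carries troponin, and all 8 troponin genes had a log2 fold change above 0, beside 49.9% of all genes tested. Tnnc2 among them averaged only 0.453 CPM in Kat6a WT, with a 95% interval of -0.81 to 1.30. Of the 8 genes 3 rose, 0 fell and 5 did not pass, with a median of 0.22, while 2.67% of all genes passed. Tnni2, the fast skeletal inhibitory subunit, rose by 1.58 ± 0.08 and the fast skeletal tropomyosin-binding subunit Tnnt3 by 0.81 ± 0.12 on the log2 scale (SE; edgeR, adjusted p = 1.06e-10 and 0.000805). The cardiac Tnni3 rose by 0.20 ± 0.05 at the edge of the threshold (edgeR, adjusted p = 0.0492), and that call was lost without any 1 of 5 hearts (Kat6a WT replicates 3, 4 and 5 and Kat6a KO replicates 1 and 3, adjusted p up to 0.296), with DESeq2's size factors in edgeR (0.0509) and without the hearts with Xist RNA (0.193). Tnnt2, the cardiac subunit that joins troponin to tropomyosin, had 2506 ± 98.7 CPM in Kat6a WT and 2748 ± 172 CPM in Kat6a KO and did not pass (edgeR, adjusted p = 0.215). Without the hearts with Xist RNA, 2 troponin genes rose.

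Of 20 genes tested that cap, lengthen or assemble thin filaments, 2 rose, 0 fell and 18 did not pass, with a median of 0.01. Over all genes tested 2.67% passed. Nrap, an actin-binding scaffold of assembling myofibrils, rose by 0.68 ± 0.07 on the log2 scale (SE), from 45.2 ± 4.79 to 72.3 ± 4.59 CPM (edgeR, adjusted p = 3.46e-05). Neb, the thin filament ruler nebulin of skeletal muscle, rose by 0.86 ± 0.20 from 2.57 ± 0.306 to 4.70 ± 1.17 CPM (edgeR, adjusted p = 0.0173), a call lost without Kat6a KO replicate 2 or 3 (adjusted p = 0.0501 and 0.171) and without the hearts with Xist RNA (0.0855), where 1 gene of the list rose. Tmod1, which caps the pointed end of cardiac thin filaments, had 309 ± 10.02 CPM and 324 ± 5.15 CPM (edgeR, adjusted p = 0.516), with all 3 Kat6a KO hearts above all 5 Kat6a WT hearts. Of the others that did not pass, Tmod2, another pointed-end cap, had a log2 fold change of -0.31 ± 0.12, Lmod3, a leiomodin, of 0.18 ± 0.07 and Fhl2 of 0.14 ± 0.05 (SE; edgeR, adjusted p = 0.221, 0.206 and 0.142), and their 95% intervals left out 0. The cytoskeletal actins did not pass: Actb had a log2 fold change of -0.07 ± 0.05 and Actg1 of -0.18 ± 0.06 (SE; edgeR, adjusted p = 0.517 and 0.179). Neither did the enteric actin Actg2, at 1.81 ± 0.708 and 2.80 ± 0.835 CPM (edgeR, adjusted p = 0.333).

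**Figure D5:**
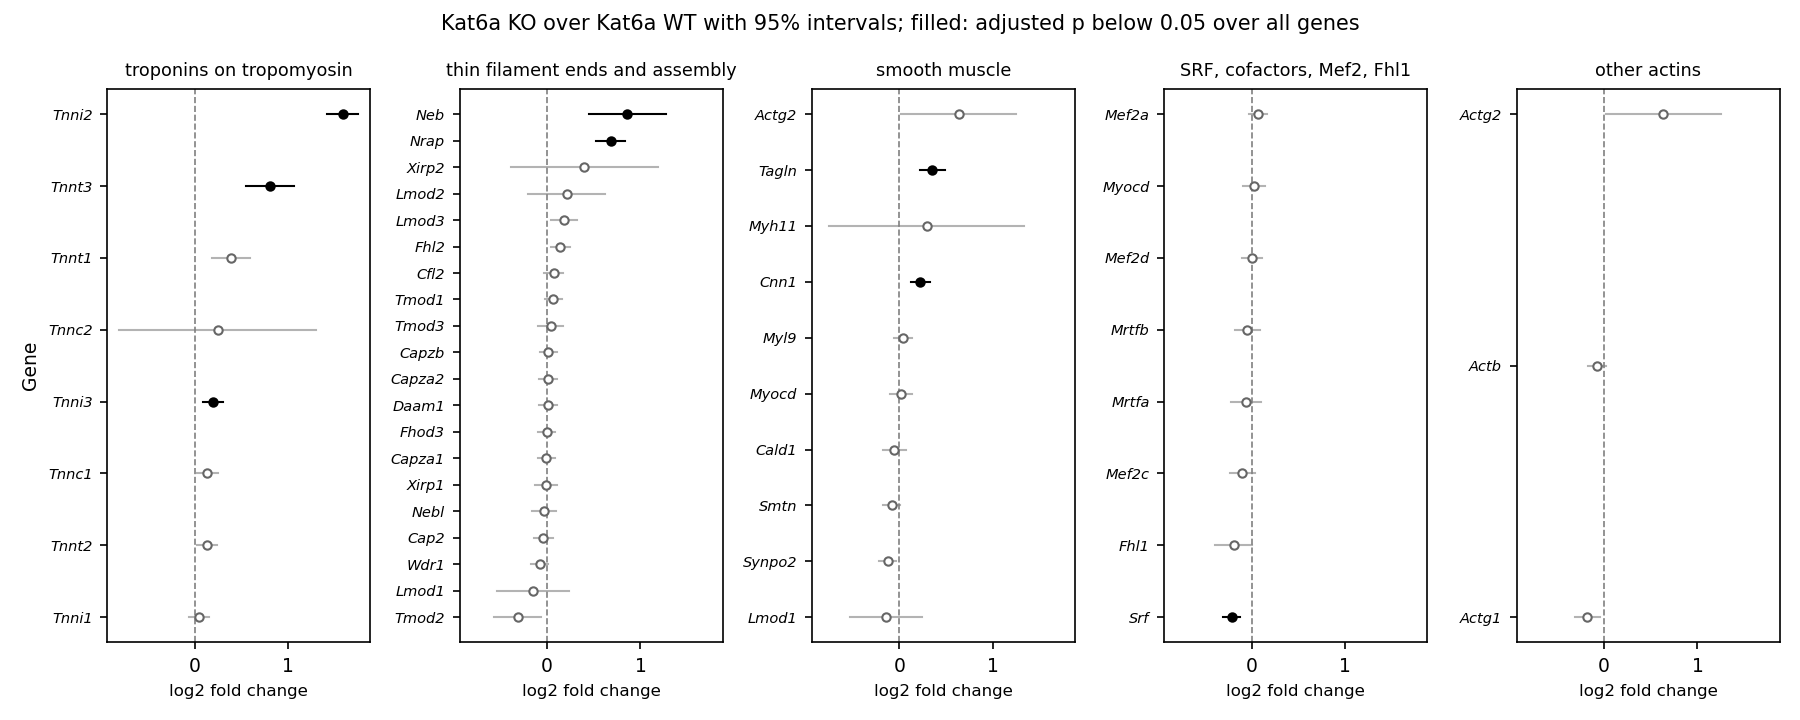
Log2 fold change, Kat6a KO over Kat6a WT, with 95% intervals, for troponins, thin filament genes, smooth muscle genes, the list of Srf, its cofactors, Mef2 genes and Fhl1, and other actins; filled points passed an adjusted p of 0.05 over all genes. Tnni2, Tnnt3, Tnni3, Neb, Nrap, Tagln and Cnn1 lie to the right and Srf to the left of 0.

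Muscle actin genes are classic targets of serum response factor, encoded by Srf, which binds a short site called the CArG box (a run of A and T between CC and GG) and works with myocardin-family cofactors. Srf was lower in every Kat6a KO heart than in any Kat6a WT heart and fell by 0.21 ± 0.04 on the log2 scale (SE), from 239 ± 4.79 to 206 ± 6.83 CPM (edgeR, adjusted p = 0.00708). In a list of 8 genes that holds Srf, its cofactors Myocd, Mrtfa and Mrtfb, the separate DNA-binding factors Mef2a, Mef2c and Mef2d, and Fhl1, 1 fell, 0 rose and 7 did not pass, while 2.67% of all genes passed. Myocd did not pass, with 154 ± 11.7 and 157 ± 6.32 CPM (edgeR, adjusted p = 0.911). All 7 members were matched in the RefSeq promoter table, in 8 windows of the 250 bases before a start site. A CArG box stood in 2 of them, against 482 of 32851 windows (1.47%) over all genes; the site reads as a CArG box on both strands, so each was counted once. These 2 windows, of Actc1 and Acta1, are printed because they are the ones that hold a box, whose letters are not the same in both. They are 5′ to 3′ on the strand of the gene with the box in capitals, from chr2:114052876-114053125 and chr8:123894776-123895025, both on the minus strand of GRCm38.p6.
Actc1: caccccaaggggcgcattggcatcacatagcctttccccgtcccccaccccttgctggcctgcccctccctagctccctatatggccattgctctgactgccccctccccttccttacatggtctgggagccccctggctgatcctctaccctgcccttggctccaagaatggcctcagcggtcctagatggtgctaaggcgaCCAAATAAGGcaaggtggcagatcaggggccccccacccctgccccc
Acta1: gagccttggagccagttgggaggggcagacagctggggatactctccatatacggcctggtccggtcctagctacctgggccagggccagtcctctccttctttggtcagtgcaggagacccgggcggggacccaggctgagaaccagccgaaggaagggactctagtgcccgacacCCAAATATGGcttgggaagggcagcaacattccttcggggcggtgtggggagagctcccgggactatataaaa
The box ended 37 bases before the annotated start of Actc1 and 63 bases before that of Acta1. No exact box was found in the windows of Acta2, Tpm1, Tpm2, Tpm3 or Tpm4. The Tpm1 window and a further window of Tpm3 lay wholly inside the gene spans given above, and those of Acta2 and Tpm2 partly inside. The start sites behind these windows were not the outermost of their genes. Boxes with a base that departs from the exact form were not searched in any window, nor were other promoters or sites outside these windows. The absence of an exact box here is therefore not an absence of CArG sites from these genes.

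Markers of other muscle were read for the cells a whole heart could hold. Of 10 smooth muscle genes 2 rose, 0 fell and 8 did not pass, with a median of 0.03 and 6 of 10 above 0: Tagln, a smooth muscle actin-binding protein that early heart muscle also makes, rose by 0.35 ± 0.06 and Cnn1, calponin, by 0.23 ± 0.05 on the log2 scale (SE; edgeR, adjusted p = 0.00377 and 0.00908). The share that passed over all genes tested was 2.67%. The call of Cnn1 was lost without Kat6a KO replicate 1 (adjusted p = 0.0811) and without the hearts with Xist RNA (0.0676), where 1 gene of the list rose. Synpo2 and Smtn, which did not pass, had log2 fold changes of -0.12 and -0.08 (edgeR, adjusted p = 0.175 and 0.436), with all 3 Kat6a KO hearts below all 5 Kat6a WT hearts. Cald1 and Lmod1 had log2 fold changes of -0.05 and -0.15 (adjusted p = 0.784 for each). The summed CPM of the 10 genes was 2389 to 2629 in Kat6a WT hearts and 2712 to 2803 in Kat6a KO hearts, beside the values of Acta2. Most of the difference in the sum lay in Tagln and Cnn1. Tagln averaged 512 CPM in Kat6a WT and 653 CPM in Kat6a KO, and Cnn1 337 and 395 CPM. Myh11, the smooth muscle myosin, was low, at 3.04 ± 1.86 and 3.67 ± 0.505 CPM. Whether smooth muscle cells had a part in the actin or tropomyosin values was not tested.

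Defining markers of the skeletal muscle lineage were at or near 0. Myf5 and Mymk had 0 counts in every heart, Myod1, Pax7 and Myf6 had at most 2, and Myog at most 6. Of the 12 genes of this list 6 were tested, of which 2 rose and 0 fell: Myl1, an alkali myosin light chain, by 0.40 ± 0.06, and Ckm, muscle creatine kinase, by 1.00 ± 0.22 from 2.40 ± 0.657 CPM (SE on the log2 scale; edgeR, adjusted p = 0.000458 and 0.0123). The call of Ckm was lost without Kat6a KO replicate 1 or 3 (adjusted p = 0.0765 and 0.103). The other 4 genes tested did not pass. Actn3 had a log2 fold change of -0.38, Mylpf of 0.29, and Myh3 and Myh8 of 0.03 each (edgeR, adjusted p = 0.448, 0.212, 0.990 and 0.986). The median of the 6 was 0.16, with 5 above 0, while 2.67% of all genes tested passed. The summed CPM of the list was 154 to 194 in Kat6a WT hearts and 219 to 236 in Kat6a KO hearts, most of it from Myl1. Erythroid RNA, read for blood left in the hearts, summed to 4024 to 16645 CPM in Kat6a WT and 5629 to 9558 CPM in Kat6a KO, and 0 of its 10 genes passed (edgeR; 0 at an unadjusted p of 0.05), Klf1 among them (adjusted p = 0.847). Genes of the immediate early and heat shock responses had a median of 0.28, with 10 of 14 above 0 and 0 past the threshold (edgeR; 2 at an unadjusted p of 0.05, Ier3 and Hsph1). Among them Egr1 stood at 55.7 CPM in Kat6a KO replicate 1 and at 10.99 to 15.3 CPM in the other 7 hearts; without that heart the log2 fold changes of Tpm1, Tpm2 and Acta1 were 0.25, 0.23 and 0.33. Its part in the values was not tested.

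Genes that varied most like each member from heart to heart were ranked by Pearson correlation of log2 CPM over the 8 hearts, after the mean of each genotype was subtracted, among 11603 genes. The nearest to Actc1 were Trappc4 and Fam162a (r = 0.996 and 0.99), and to Acta1 Yars and Cgnl1 (0.98 each). Acta2 was nearest to Kars and Pigbos1 (0.98 each), Tpm1 to Nkain1 and Surf4 (0.98 each) and Tpm2 to Wdfy1 and Eif2ak3 (0.97 each). Tpm4 was nearest to Ctnnb1 and Adam15 (0.96 each) and Tpm3 to Palmd and AW549877 (0.95 and 0.94). None of these genes was shared between members; with 8 hearts the ranking is a description.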

How the data were processed

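The authors deposited raw counts per Entrez gene with a gene length, made with featureCounts on mm10 after bcl2fastq, per the submitters' processing notes; the library kit marks strand, per the labels' protocols. The sources used here do not give versions, aligner, annotation or strand setting. The 8 files of single hearts held the same counts as the table of the series, which was used. Symbols and positions came from the GRCm38.p6 RefSeq table, which named 25275 of 27179 IDs.

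Genes were filtered with filterByExpr and scaled by trimmed mean of M values; Kat6a KO was tested against Kat6a WT with edgeR's robust quasi-likelihood test over all 8 hearts with no covariate (edgeR 4.0.16 in R 4.3.3), at an adjusted p of 0.05. SE was the size of the log2 fold change divided by the root of its F statistic. Hearts varied with a common biological coefficient of variation of 9.10%, and library size was 19911803 to 34539787 counts. Alternatives were DESeq2 1.42.0, voom in limma 3.58.1, other scalings, filters and covariates, a replicate block and leaving out hearts; leaving out the pair with Xist RNA was chosen after seeing the data. The test was tried on simulated data. Shares and ratios used scipy 1.17.1. Members and gene lists were chosen with earlier results of these data known. Named genes were the members, Kat6a, up to 4 genes of smallest p that passed from each list (or 2 where none did), and the 2 nearest genes of each member; others named were picked after their values were seen. Of the genes the rule selects, 1 is not reported here. No table of proteins was used here.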

Additional observations from a re-analysis of the deposited data

Results flagged for a closer look

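Among the 5 Kat6a WT hearts, 46 sets of values were examined for a heart far from the other 4, and 2 were marked, about what chance gives at 1 in 20. Relative to the summed cardiomyocyte genes, Acta2 stood at -3.61 (log2) in Kat6a WT replicate 1 and at -3.85 to -3.78 in the other 4. Actg1, a cytoskeletal actin, had 219 CPM in Kat6a WT replicate 2 and 177 to 188 CPM in the other 4.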

How the results depend on the processing

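The log2 fold changes of all 7 genes kept their sign under every alternative fit of the whole table and every omission of a heart, at 0.21 to 0.27 for Tpm1 and 0.21 to 0.28 for Tpm2; only division by the summed cardiomyocyte genes turned Actc1 to -0.10 and Acta2 to -0.029. Leaving out each heart in turn gave 194 to 496 genes past the threshold, beside 403 (194 without Kat6a KO replicate 1, 263 without replicate 3), and 1 to 3 of the 7 members. Replicate numbers do not pair the hearts (correlations of deviations of 0.07, -0.12 and -0.05 between hearts of the same number). With the replicate number as a block 181 genes passed and 1 member, Acta1 (0.33, adjusted p = 0.0272), while Tpm1 and Tpm2 did not (adjusted p = 0.114 and 0.0616). Acta1 also passed without robust moderation (0.0261) and with erythroid RNA as a covariate (0.0352). It did not pass with the other scalings in edgeR (0.0997 and 0.0921), with no filter (0.194), with a filter on CPM (0.0941) or with Xist RNA as a covariate (0.308). By counts without division by length the Tpm4 share differed by -1.48 percentage points in place of -2.05. For the other 6 shares this difference between groups moved by less than the SD of the share in Kat6a WT. The levels of the shares without division by length were not compared. Hearts of 4 against 3 or 5 against 2 cannot give an exact p under 0.0571 or 0.0952. With a heart left out, the shares of Tpm1, Tpm3, Tpm4 and Acta1 gave exact permutation p from 0.0571 to 0.0952, so they could not pass. Each of the 7 genes had at least 2177 counts in every heart, and depth was not varied.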
